A study of Mus musculus with 12 samples.

Results

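The genes described here are 43 genes of mature skeletal muscle, found by their gene names among the 55487 genes of the deposited expression tables. All 43 names were present, each once. RNA of full-thickness punch wounds, 6 mm wide, on the back of male C57BL/6JNarl mice, 6 weeks of age, was sequenced 3 and 6 days after wounding. The sham group received Pluronic F127 gel alone, and the CAP group received 10 µM capsaicin (CAP, the pungent compound of chili peppers) in the same gel (25% Pluronic), with 200 µL given each day. With 3 libraries per group, there were 4 groups (sham day 3, CAP day 3, sham day 6 and CAP day 6). No unwounded skin was analysed here, so the level of the genes before injury is not known. Mice carried 2 wounds each, and the sources used here do not say whether libraries share a mouse. The p-values therefore measure the spread between these libraries, which may be smaller than the spread between mice.

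Mouse skin rests on a thin sheet of striated muscle, the panniculus carnosus, which a full-thickness wound cuts through. In a muscle fibre, myosin in the thick filament pulls on actin in the thin filament, and the Z-disc and the giant protein titin hold the filaments in register as a sarcomere. A nerve impulse excites the fibre membrane, and calcium leaves the sarcoplasmic reticulum through the ryanodine receptor. A calcium pump returns it, with ATP supplied by creatine kinase, glycogen breakdown and glycolysis. When fibres waste or are remodelled, ubiquitin ligases mark sarcomere proteins for degradation. In bulk RNA, fewer muscle fibres and less muscle RNA per fibre cannot be told apart. Wounds were excised with surrounding tissue, and how much muscle each sample held is not given.

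Expression was given as TPM, a measure scaled for transcript length and to the same total in each library, so levels can be compared between genes. By mean over the 12 libraries, the members ran from 3.25 TPM for Sln, the sarcolipin that inhibits the calcium pump, to 1807 TPM for Acta1, the skeletal muscle actin. Acta1 (chr8:123891769-123894751, mm10) was followed by the myosin gene Myh1 at 536 TPM and the troponin T gene Tnnt3 at 468 TPM. Of the markers of fibre types and the heart, the slow myosin gene Myh7 did not exceed 0.217 TPM in any library. Of the heart markers, Nppa was listed at 0 in all 12 libraries and Myh6 did not exceed 0.0931 TPM. The other heart markers were detected: Tnni3 averaged 5.13 TPM, with 0 libraries under 0.3 TPM, and Myl7 averaged 0.858 TPM and reached 2.07 TPM. Libraries were alike in the number of genes at 0.3 TPM or more (18533 to 19325) and in the share of mitochondrial genes (5.21% to 6.56% of the TPM). They were less alike in the share of the 10 most abundant genes (8.27% to 14.1%), and the sums of markers of other cells differed, as given below. TPM holds no record of the number of reads, so the depth is unknown and no counting error can be given.

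Together the 43 genes made up 0.880% ± 0.169 of the TPM in sham wounds at day 3 (mean ± SD of 3 libraries, as everywhere below). The share was 0.666% ± 0.321 in CAP wounds at day 3, 0.536% ± 0.111 in sham wounds at day 6 and 0.419% ± 0.0697 in CAP wounds at day 6. By library, sham wounds at day 3 had 0.868%, 1.06% and 0.718%, and sham wounds at day 6 had 0.664%, 0.470% and 0.473%, without overlap. CAP wounds at day 3 had 1.02%, 0.590% and 0.389%, so that replicate 1 lay within the range of the sham libraries and replicates 2 and 3 below it. CAP wounds at day 6 had 0.352%, 0.491% and 0.414%, which overlapped both the sham wounds of the same day and the CAP wounds of day 3.

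**Figure D1:**
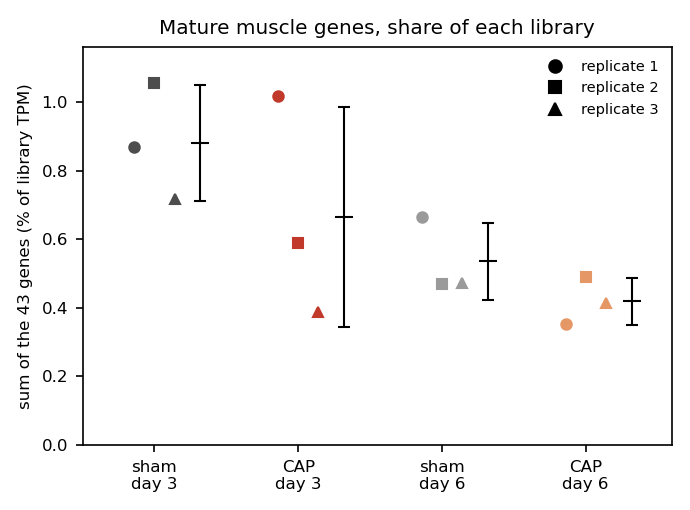
Sum of the 43 mature muscle genes as a percentage of the TPM of each library, by group on the horizontal axis. Symbols are replicates 1 to 3, and the bars give the mean and SD of 3 libraries. CAP day 3 spans 0.389% to 1.02%, and sham day 6 lies wholly below sham day 3.

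The members moved as a block from library to library. In sham wounds at day 3, replicate 2 held the highest value for 35 of the 43 genes and replicate 3 the lowest for 39. In CAP wounds at day 3, replicate 1 was the highest for 41 genes and replicate 3 the lowest for 39. In sham wounds at day 6, replicate 1 was the highest for 42 genes. Over all 12 libraries, the highest value was in sham day 3 replicate 2 for 23 genes and in CAP day 3 replicate 1 for 14, and the lowest in CAP day 6 replicate 1 for 21. The members differed in how far they moved. The highest library exceeded the lowest 9.22-fold for Myh4, 6.08-fold for Trim63, 6.03-fold for Xirp2, 5.57-fold for Myh2 and 5.56-fold for Actn3, but only 1.89-fold for Mb, the oxygen-binding myoglobin, and 1.90-fold for Fbxo32, a ubiquitin ligase of wasting muscle.

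**Figure D2:**
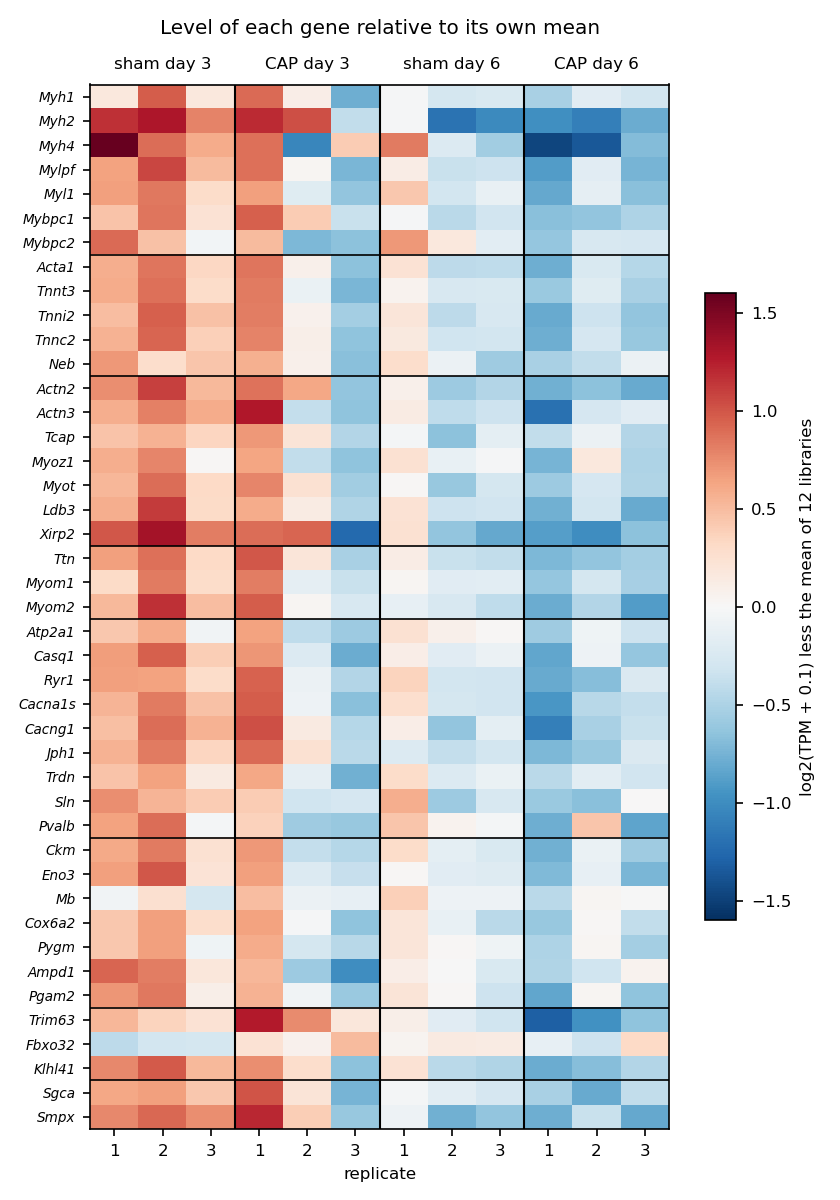
Level of each of the 43 genes (rows, ordered by role and separated by lines: thick filament, thin filament, Z-disc, titin and M-band, excitation and calcium handling, energy metabolism, ubiquitin ligases and sarcomere turnover, membrane and costamere) in each library (columns, 3 replicates per group). Colour is log2(TPM + 0.1) less the gene's mean over 12 libraries. Most rows are red in sham day 3 and in CAP day 3 replicate 1 and blue in CAP day 3 replicate 3 and in CAP day 6, and Fbxo32 departs from the pattern.

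Differences were tested on the log2(TPM + 0.1) scale with limma, on every gene that averaged 0.3 TPM or more in each of the 2 groups. All 43 members passed that filter in each comparison. The threshold of the study was used: a gene passed it with a 2-fold difference or more together with an unadjusted p below 0.05, and p-values adjusted over all genes tested are given beside it. With 3 libraries against 3, the exact permutation test, which was 2-sided, cannot give a p below 0.1. The comparisons of days and of treatments share libraries, so their results are not independent of each other.

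The comparison of day 6 with day 3 in sham wounds describes how the muscle genes differed between the days in wounds given gel alone. Of the 43 members, 5 were past the threshold and lower at day 6 (background over all genes tested, 1.61%), and 0 were higher (background 2.13%). The 5 were Myh2, Myh4, Actn2, Xirp2 and Smpx. At an unadjusted p under 0.05 there were 36 of 43 members (background 16%), and 28 members were lower without overlap of the groups (background 10.6%). The log2 difference was below 0 for 41 members, with a median of -0.73 against 0.00 over all genes. The limma adjusted p was under 0.05 for 7 members (background 2.29%), namely Myh2, Actn2, Actn3, Xirp2, Jph1, Sgca and Smpx. In a joint fit of all 12 libraries no member kept an adjusted p under 0.05, and 0 of all genes had one. At an unadjusted p under 0.05 there were 22 members in that fit (background 12%). With no filter on low values no member kept an adjusted p under 0.05 either, while 114 of all genes had one. There, 34 members had an unadjusted p under 0.05 (background 12%). With single libraries left out, 0 to 6 members had an adjusted p under 0.05, and 1 to 498 of all genes did. Left out singly, sham day 6 replicate 1 raised the 5 members past the threshold to 11 and sham day 3 replicate 3 raised them to 9, and sham day 3 replicate 2 and sham day 6 replicate 2 each lowered them to 3. Over all genes, 1.68% to 1.88% were past the threshold and lower in these fits. Myh2, Xirp2 and Smpx were past the threshold with any 1 library left out.

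Smpx, a small protein of the costamere that ties the sarcomere to the membrane (chrX:157698910-157752591, mm10), had 24.3, 26.9 and 23.8 TPM in sham wounds at day 3 and 13.3, 8.27 and 9.13 TPM at day 6. The groups lay far apart, with a log2 difference of -1.31 ± 0.18 (SE; limma adjusted p = 0.0222). Myh2, the heavy chain of oxidative fast fibres, had 206, 224 and 159 TPM at day 3 and 90.8, 40.3 and 45.2 TPM at day 6. It was lower by the widest margin of the 43 genes, with a log2 difference of -1.82 ± 0.30 (limma adjusted p = 0.0327). Myh4, the heavy chain of the fastest fibres, had 376, 208 and 170 TPM at day 3 and 199.9, 96.3 and 76.4 TPM at day 6, and the groups overlapped. Its log2 difference of -1.06 ± 0.41 (limma adjusted p = 0.262) fell short of the threshold when sham day 3 replicate 1 was left out (-0.72), and likewise without sham day 3 replicate 2 (-1.15, with an unadjusted p just over the limit), sham day 6 replicate 2 (-0.94) or sham day 6 replicate 3 (-0.77).

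Of the 7 genes of the Z-disc, which anchors the thin filaments, 3 had an adjusted p under 0.05. Xirp2, an actin-binding repeat protein of muscle attachment sites, fell from 57.0 ± 10.6 to 21.7 ± 9.19 TPM, a log2 difference of -1.45 ± 0.28 (limma adjusted p = 0.0494). Actn2, an alpha-actinin that cross-links actin, fell from 205 ± 41.3 to 95.8 ± 24.4 TPM, a log2 difference of -1.11 ± 0.21 (limma adjusted p = 0.0445), and without sham day 3 replicate 2 or sham day 6 replicate 2 its difference was -0.95 or -0.98, short of 2-fold. Actn3, the alpha-actinin of fast fibres, had a log2 difference of -0.86 ± 0.15 (limma adjusted p = 0.0394). The groups of these 3 genes did not overlap.

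Among the other roles, the 5 thin filament genes were close to each other, with log2 differences from -0.80 to -0.60, and all 5 had an unadjusted limma p under 0.05. Acta1 had 2507, 3029 and 2117 TPM at day 3 and 1980, 1261 and 1266 TPM at day 6, a log2 difference of -0.78 ± 0.22 (limma adjusted p = 0.141). The 3 genes of titin and the M-band, the structure at the centre of the sarcomere, had differences from -0.99 to -0.58, and the groups did not overlap for any of them. Titin itself (Ttn) had a log2 difference of -0.83 ± 0.20 (limma adjusted p = 0.0853). Sgca, the alpha-sarcoglycan of the membrane complex that is lost in a form of muscular dystrophy, fell from 14.8 ± 1.24 to 8.91 ± 0.761 TPM (log2 difference -0.72 ± 0.12, limma adjusted p = 0.0327).

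The 9 genes of excitation and calcium handling had a median log2 difference of -0.65. Jph1, which joins the surface membrane to the reticulum, fell from 8.31 ± 1.42 to 4.44 ± 0.247 TPM (log2 difference -0.88 ± 0.16, limma adjusted p = 0.0424). Atp2a1, the fast calcium pump, had a difference of -0.21, Pvalb, the calcium buffer parvalbumin, -0.35 and Sln -0.65, and none of these 3 had an unadjusted limma p under 0.05. Of the 7 genes of energy metabolism, 5 had one. Ckm, the muscle creatine kinase, had a log2 difference of -0.60 ± 0.19 (limma adjusted p = 0.187), while Mb was level, at 134 ± 25.8 and 144 ± 27.5 TPM (log2 difference 0.10, 95% interval -0.31 to 0.52).

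Of the 3 genes of ubiquitin ligases and sarcomere turnover, Fbxo32 was higher at day 6 and the other two lower. Fbxo32 (atrogin-1; chr15:58175879-58214932, mm10) had 10.9, 11.8 and 11.99 TPM at day 3 and 15.1, 16.1 and 16.03 TPM at day 6. It was the only member higher at day 6 without overlap of the groups (background 10.8%), at a log2 difference of 0.44 ± 0.10 (limma adjusted p = 0.0738). Trim63 (MuRF1; chr4:134315120-134329629, mm10), the other ligase known from muscle wasting, had 19.5, 17.3 and 15.8 TPM at day 3 and 14.4, 11.8 and 10.8 TPM at day 6, a log2 difference of -0.51 ± 0.14 (limma adjusted p = 0.134). Klhl41, an adaptor of a ubiquitin ligase that acts on sarcomere proteins, followed the structural genes with -0.98 ± 0.21 (limma adjusted p = 0.0652).

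**Figure D3:**
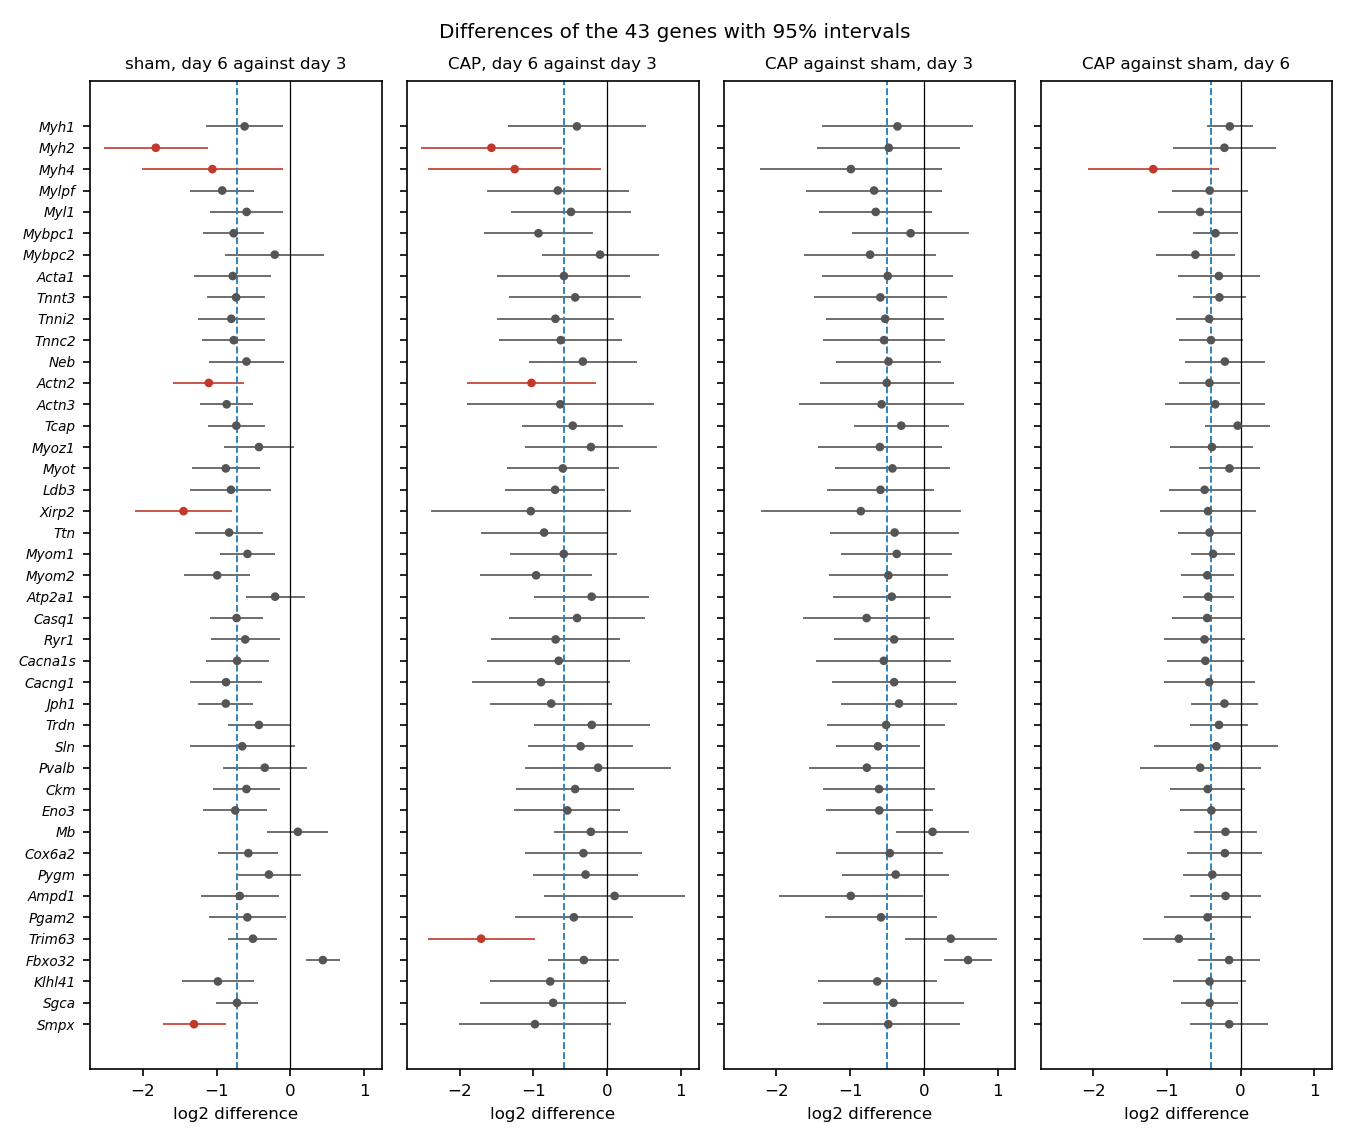
Log2 difference of each of the 43 genes (rows) with its 95% interval in 4 comparisons (panels, horizontal axis). Red marks genes past the threshold, the dashed line is the median of the 43 genes, and the solid line is 0. Intervals are wide in the 2 comparisons that use CAP day 3, and Myh2 lies to the left in both comparisons of days.

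In CAP wounds, the comparison of day 6 with day 3 gave 4 members past the threshold and lower (background 1.52%) and 0 higher (background 1.27%). The 4 were Trim63, Myh2, Myh4 and Actn2. The log2 difference was below 0 for 42 of 43 members, with a median of -0.59 against -0.05 over all genes, 8 members had an unadjusted p under 0.05 (background 11.6%), and 6 were lower without overlap (background 9.63%). No member was higher without overlap (background 8.05%), and by limma 0 members had an adjusted p under 0.05 (background 0.00549%). CAP day 3 replicate 3, which was low in most members, decided much of this: 15 members were past the threshold without it (background 1.89%). There were 2 without CAP day 3 replicate 1 (background 1.47%) and 2 without CAP day 6 replicate 1 (background 1.52%). The median was -0.95 without CAP day 3 replicate 3, and -0.22, with 34 members below 0, without CAP day 3 replicate 1. Trim63 and Myh2 were past the threshold with any 1 library left out. Only 3 members passed after median-ratio scaling or quantile normalization (background 1.32% lower in each), where Actn2 was at -0.98 or -0.99. With no filter on low values 3 passed as well (background 1.5% lower), and the p of Myh4 missed the limit. Actn2 was lost without CAP day 3 replicate 1 (-0.73), CAP day 3 replicate 2 (-0.86) or any 1 of the CAP day 6 libraries (-1.07 to -0.99), and Myh4 without CAP day 3 replicate 1 (-0.85), CAP day 3 replicate 3 (-1.09), CAP day 6 replicate 1 (-1.11) or CAP day 6 replicate 2 (-1.16).

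Trim63 had 32.6, 22.8 and 15.3 TPM in CAP wounds at day 3 and 5.36, 6.83 and 8.60 TPM at day 6. Every library of day 6 was below every library of day 3, and the log2 difference was -1.71 ± 0.30 (limma adjusted p = 0.270). Myh2 had 209, 188 and 69.8 TPM at day 3 and 46.3, 42.7 and 52.9 TPM at day 6, a log2 difference of -1.57 ± 0.40 (limma adjusted p = 0.3005), and the groups did not overlap. Myh4 differed by -1.25 ± 0.49 (limma adjusted p = 0.407) and Actn2 by -1.03 ± 0.37 (limma adjusted p = 0.382). The remaining genes named in each comparison were not past the threshold: Myh1 differed by -0.41, Acta1 by -0.59, Ckm by -0.43, Ttn by -0.85, Pvalb by -0.12, Sln by -0.36 and Fbxo32 by -0.32. The myosin-binding gene Mybpc2 differed by -0.10. Ampd1, the AMP deaminase of working muscle, was the only member above 0, at 0.10 (95% interval -0.86 to 1.06).

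CAP and sham wounds at day 3 were compared to see whether capsaicin alters the muscle genes early in healing. No member was past the threshold in either direction (0 of 43; background 0.426% higher and 1.16% lower), and by limma 0 had an adjusted p under 0.05 (background 0.0164%). At an unadjusted p under 0.05 there were 3 members (background 6.6%), and 0 were lower without overlap of the groups (background 8.75%). The log2 difference was below 0 for 40 members, with a median of -0.50 against -0.05 over all genes, but CAP day 3 replicate 1 lay at the level of the sham group in nearly all of them. Without that library 9 members were past the threshold and lower, 36 had an unadjusted p under 0.05, and the median was -0.86. Over all genes the same fit had 1.97% lower past the threshold and 9.7% with an unadjusted p under 0.05. Without sham day 3 replicate 3 there were 2 (background 1.12%), and without any other single library 0. Without CAP day 3 replicate 3 the median was -0.18.

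For Acta1, CAP wounds at day 3 had 3041, 1784 and 1068 TPM against 2507, 3029 and 2117 TPM in sham wounds. The highest value of both groups was in a CAP library and the lowest in another, and the log2 difference was -0.49 (95% interval -1.38 to 0.40). Myh4 differed by -0.99 (95% interval -2.23 to 0.25), Myh1 by -0.36, Myh2 by -0.48, Ckm by -0.61, Ttn by -0.40, Xirp2 by -0.85 and Pvalb by -0.77 (95% interval -1.56 to 0.01). Such intervals hold differences of 2-fold as well as none. The 3 members with an unadjusted p under 0.05 were Fbxo32, Sln (-0.62, limma adjusted p = 0.732) and Ampd1 (-0.99, limma adjusted p = 0.748).

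Fbxo32 had 17.1, 15.3 and 20.7 TPM in CAP wounds at day 3 against 10.9, 11.8 and 11.99 TPM in sham wounds, without overlap. It was the only member higher in this way, a share of the members no larger than that of all genes (background 2.86%). The log2 difference of 0.60 ± 0.14 (limma adjusted p = 0.500, exact permutation p = 0.1) was short of 2-fold. Trim63 differed by 0.36 (95% interval -0.26 to 0.99), and Mb, the third member above 0, by 0.12.

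At day 6, 1 member was past the threshold and lower in CAP wounds (background 2.34%), 0 were higher (background 1.46%), and by limma 0 had an adjusted p under 0.05. All 43 log2 differences were below 0, with a median of -0.40 against -0.12 over all genes. Scaling mattered here: after median-ratio scaling the median over all genes was -0.02, the median of the members -0.30, and 42 members were below 0, and after quantile normalization 41 were. There were 10 members at an unadjusted p under 0.05 (background 19.2%), 2 after median-ratio scaling and 4 after quantile normalization, and 11 were lower without overlap of the groups (background 18%) and 0 higher (background 8.01%). After those scalings the background of the unadjusted p was 17.3% and 17.8%, above the share of members.

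The member past the threshold was Myh4, with 40.7, 43.9 and 69.8 TPM in CAP wounds against 199.9, 96.3 and 76.4 TPM in sham wounds. The groups did not overlap, and the log2 difference was -1.18 ± 0.37 (limma adjusted p = 0.217). The sham value was carried by replicate 1, without which the difference was -0.78, short of the threshold, and without CAP day 6 replicate 1 it was -1.04, with an unadjusted p just over the limit. Trim63 was lower too, with 5.36, 6.83 and 8.60 TPM against 14.4, 11.8 and 10.8 TPM and no overlap, at -0.84 ± 0.21 (limma adjusted p = 0.206), and it passed 2-fold without CAP day 6 replicate 3 (-1.003). In that fit 2 members were past the threshold and lower (background 5.65%).

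The other members with an unadjusted p under 0.05 were smaller in size. They were the M-band genes Myom1 (-0.37) and Myom2 (-0.45), Atp2a1 (-0.44), the myosin-binding proteins Mybpc1 (-0.34) and Mybpc2 (-0.61), Sgca (-0.42), Actn2 (-0.42) and Ldb3, a Z-disc scaffold (-0.49), with limma adjusted p from 0.223 to 0.260. Ttn had 5.54, 5.85 and 6.25 TPM in CAP wounds and 9.96, 7.13 and 6.93 TPM in sham wounds, and its difference of -0.42 missed that limit (limma adjusted p = 0.268). Acta1 differed by -0.29 (95% interval -0.85 to 0.26), Ckm by -0.45, Myh1 by -0.15, Myh2 by -0.22, Pvalb by -0.55, Sln by -0.33 and Fbxo32 by -0.16. Myh2 and Sln turned to 0.14 and 0.0053 without sham day 6 replicate 1. The members nearest to 0 were Tcap, a cap protein of titin (-0.04), Myh1 and the Z-disc gene Myot (-0.15).

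Whether the effect of CAP differed between the days was tested with all 12 libraries. In this comparison 1 member was past the threshold and lower (background 2.73%), 0 were higher (background 2.18%), and by limma 0 had an adjusted p under 0.05, with 2 at an unadjusted p under 0.05 (background 11.3%). The member was Trim63, whose difference between CAP and sham wounds was lower at day 6 than at day 3 by a log2 difference of -1.20 ± 0.36 (limma adjusted p = 0.428). Without CAP day 3 replicate 1 it was -0.93, short of 2-fold, and another member was higher in place of it (background 3.15%). Fbxo32 moved the same way by -0.76 ± 0.23 (limma adjusted p = 0.428). The median of the members was 0.14, against -0.06 over all genes, with 12 members below 0. Its sign rested on single libraries: it was 0.52 without CAP day 3 replicate 1 and -0.18, with 39 members below 0, without CAP day 3 replicate 3. Myh4 stood at -0.20, Myh2 at 0.26, Myh1 at 0.21, Acta1 at 0.20, Ckm at 0.16, Pvalb at 0.23, Sln at 0.29, Ttn at -0.02, Mb at -0.32, Smpx at 0.33, Xirp2 at 0.41 and Ampd1 at 0.79, each with an interval that held 0.

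Since most members moved together, each value was also expressed relative to the median of the 43 genes in its library, an alternative chosen after the values were seen, in which the median of the members is set to 0 in each library. On this scale Myh2 stood at 1.46, 1.45 and 1.47 log2 units above the median in sham wounds at day 3 and at 0.81, 0.01 and 0.16 at day 6. In CAP wounds it stood at 1.47, 1.87 and 1.24 at day 3 and at 0.68, 0.00 and 0.77 at day 6, so its difference exceeded that of the median member in both treatments. Trim63 stood at -1.94, -2.24 and -1.86 in sham wounds and at -1.21, -1.16 and -0.95 in CAP wounds at day 3, without overlap. At day 6 the values were -1.84, -1.74 and -1.90 in sham wounds and -2.41, -2.63 and -1.83 in CAP wounds, which overlapped. Fbxo32 stood at -2.77, -2.78 and -2.25 in sham wounds at day 3 and at -2.14, -1.74 and -0.51 in CAP wounds. In the limma fit on this scale, the calls changed. Between the days in sham wounds only Myh2 remained lower by the threshold (-1.13, background 0.419%), Fbxo32 became higher (1.13, background 14.8%), and Smpx (-0.62), Actn2 (-0.42), Xirp2 (-0.76) and Myh4 (-0.37) fell short. In CAP wounds, Trim63 (-1.18) and Myh2 (-1.04) were lower at day 6 (background 0.489%). No member was higher there (background 6.19%). Between treatments, Fbxo32 was higher at day 3 (1.14, background 3.16%) and no member lower (background 0.376%). At day 6 no member passed, with Myh4 at -0.81 (background 0.922% lower and 5.04% higher). Trim63 was lower in the comparison of effects (-1.36, background 2.42%), and no member was higher (background 1.03%).

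**Figure D4:**
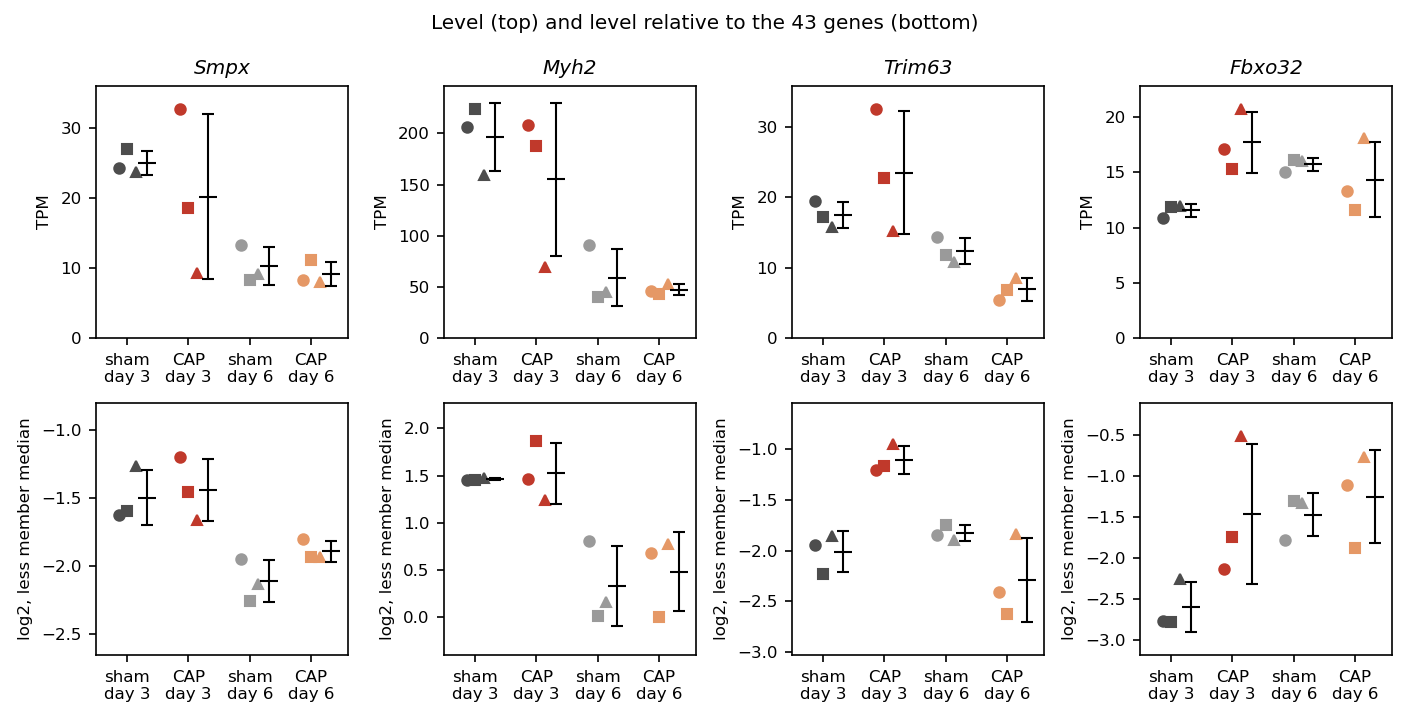
TPM (top row) and log2 level relative to the median of the 43 genes (bottom row) of Smpx, Myh2, Trim63 and Fbxo32 by group. Symbols are replicates 1 to 3 as in the plot of shares, and bars are mean and SD of 3 libraries. Trim63 runs from 15.3 to 32.6 TPM in CAP day 3 and from 5.36 to 8.60 TPM in CAP day 6.

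The myosin heavy chain genes show the fibre types, since each fibre makes mainly a single heavy chain: Myh7 in slow fibres, Myh2 in type IIa, Myh1 in type IIx and Myh4 in type IIb. Myh2 (67171027 to 67197517), Myh1 (67200052 to 67224575) and Myh4 (67238029 to 67260446) lie side by side on the plus strand of mouse chromosome 11 (mm10). Of the TPM of these 4 genes, Myh1 held 60.7% ± 10.3 in sham wounds and 65.2% ± 6.89 in CAP wounds at day 3, and 72.0% ± 7.88 and 80.3% ± 3.31 at day 6. The share of Myh2 was 17.9%, 15.8% and 17.8% in sham wounds at day 3 and 11.6%, 7.30% and 8.29% at day 6, and in CAP wounds it was 15.4%, 23.9% and 13.6% at day 3 and 10.5%, 8.07% and 9.91% at day 6. In neither treatment did the days overlap (exact permutation p = 0.1, adjusted p = 0.267 over 16 tests). The share of Myh4 at day 6 was 9.28%, 8.30% and 13.1% in CAP wounds and 25.5%, 17.5% and 14.01% in sham wounds, again without overlap and with the same p. Myh1 in CAP wounds was higher at day 6 than at day 3 without overlap (exact permutation p = 0.1). Myh7 held no more than 0.0242%, and its shares did not overlap in 2 comparisons (sham wounds between days, and treatments at day 3). With 3 libraries per group no p under 0.1 was possible, and no share passed the adjustment.

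**Figure D5:**
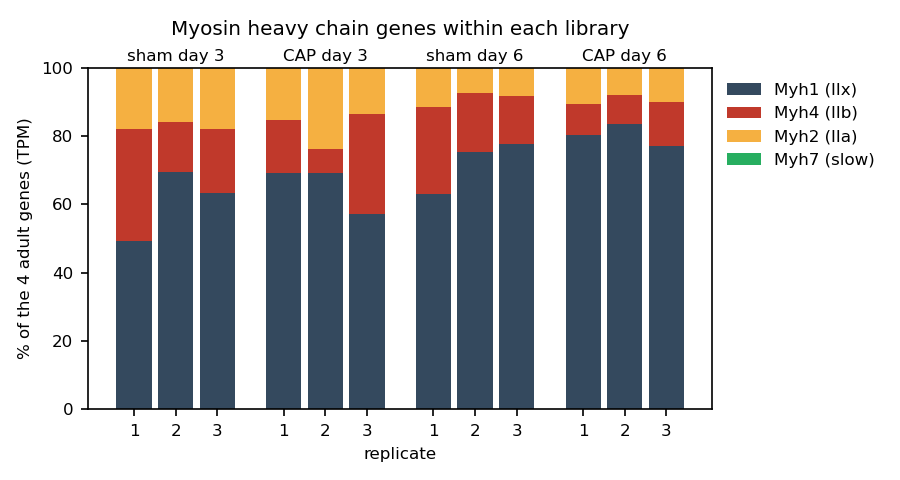
Share of Myh1, Myh4, Myh2 and Myh7 in their summed TPM (vertical axis, 0% to 100%) in each library (horizontal axis, 3 replicates per group). The Myh2 part is 13.6% to 23.9% in the day 3 libraries and 7.30% to 11.6% in the day 6 libraries, and Myh7 is too small to be seen.

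These genes are so alike that reads can be assigned to the wrong copy. Of the stretches of 31 bases in their GENCODE M21 transcripts, 37.9% for Myh1, 32.8% for Myh2 and 30.4% for Myh4 also occur in another gene, mostly in each other, and the sources do not say how such reads were divided. By contrast, 22 of the 43 members shared no such stretch with another gene. Exons of 18 members overlap a gene on the opposite strand, in 6 cases by over 10% of the bases, and whether strand was used in counting is not given either. The troponin C gene Tnnc2 shares 74% of its exon bases with Ube2c, a gene of cell division at a mean of 43.4 TPM, and Atp2a1 shares 21.9% with Rabep2 at 43.6 TPM, so the values of these pairs may be mixed.

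The log2 differences of the 3 fast myosin genes were unequal in size, although no share of these neighbours passed the adjustment. The 250 bases upstream of their RefSeq starts are shown for that reason. They are on the plus strand of chromosome 11 (GRCm38.p6), at chr11:67170777-67171026 for Myh2, chr11:67199852-67200101 for Myh1 and chr11:67237562-67237811 for Myh4. Capitals mark E-boxes (CANNTG, the motif of the MyoD family) and matches of the MEF2 consensus, the motif of the MEF2 factors of muscle.
Myh2: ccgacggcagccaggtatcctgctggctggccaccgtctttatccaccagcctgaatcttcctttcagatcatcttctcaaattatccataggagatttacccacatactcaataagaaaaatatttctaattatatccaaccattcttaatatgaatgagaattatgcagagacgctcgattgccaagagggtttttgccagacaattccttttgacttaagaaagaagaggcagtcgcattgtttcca
Myh1: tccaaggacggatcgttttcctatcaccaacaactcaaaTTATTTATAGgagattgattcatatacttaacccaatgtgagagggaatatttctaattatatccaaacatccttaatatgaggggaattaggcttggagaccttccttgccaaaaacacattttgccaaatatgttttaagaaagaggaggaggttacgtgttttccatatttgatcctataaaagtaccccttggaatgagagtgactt
Myh4: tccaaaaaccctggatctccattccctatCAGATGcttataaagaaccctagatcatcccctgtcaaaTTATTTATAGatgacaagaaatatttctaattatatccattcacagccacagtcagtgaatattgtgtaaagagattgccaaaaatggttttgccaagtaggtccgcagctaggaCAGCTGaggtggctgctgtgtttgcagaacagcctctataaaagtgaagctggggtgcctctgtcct
The Myh1 and Myh4 windows hold 1 MEF2 match each and the Myh4 window 2 E-boxes, and neither motif was found in the Myh2 window. For Trim63, at chr4:134314870-134315119, the same stretch is shown since this gene departed most from the other members in CAP wounds.
Trim63: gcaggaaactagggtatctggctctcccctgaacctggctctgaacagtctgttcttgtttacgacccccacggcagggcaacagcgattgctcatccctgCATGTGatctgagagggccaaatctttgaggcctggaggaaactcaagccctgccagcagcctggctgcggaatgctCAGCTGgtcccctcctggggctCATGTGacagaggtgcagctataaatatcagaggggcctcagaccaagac
It holds 3 E-boxes and 0 MEF2 matches. Promoters were matched in RefSeq for 28 of the 43 members, with 32 windows. On either strand, an E-box was found in 78.1% of them against 66.2% of all 32851 windows of the same length. The MEF2 consensus was found in 21.9% against 2.92%, the CArG box of serum response factor in 15.6% against 1.47%, and TATAAA, which can overlap the MEF2 and CArG matches, in 15.6% against 12.4%. A match describes these letters only.

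Other muscle genes were set beside the members in 4 lists written from general knowledge. Of 28 other genes of mature muscle, led by the phosphofructokinase gene Pfkm, none were past the threshold at day 3 between treatments, and the median log2 difference was -0.41. At day 6, the membrane repair gene Dysf (-1.29) and the sodium channel gene Scn4a (-1.05) were lower in CAP wounds (background 2.34%) and Asb2, an adaptor of a ubiquitin ligase, was higher (background 1.46%). Asb2 had 22.9, 35.4 and 22.6 TPM in CAP wounds and 10.9, 13.7 and 14.04 TPM in sham wounds, a log2 difference of 1.03 ± 0.21 (limma adjusted p = 0.205). With the day, 1 gene of this list was lower in sham wounds (Cav3, -1.06, background 1.61%) and 3 in CAP wounds (background 1.52%).

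The slow fibre genes tested had median log2 differences between treatments of -0.98 at day 3 and -0.91 at day 6, and the regeneration genes of -1.20 and -1.43. Of 10 slow fibre genes, led by Csrp3, 7 were tested, and 3 were past the threshold and lower in CAP wounds at each day (Tnni1, Tnnc1 and Casq2). Of these, Tnnc1 and Casq2 are also genes of the heart. Of 12 genes of muscle stem cells and regeneration, led by Tnnt2, 5 of 12 tested were lower in CAP wounds at day 3 and 5 of 9 at day 6. For both lists the background was 1.16% lower at day 3 and 2.34% at day 6. By limma no gene of either list had an adjusted p under 0.05 between treatments (smallest 0.206). Between the days, 9 of 10 regeneration genes tested were lower at day 6 in sham wounds (background 1.61%) and 6 of 9 in CAP wounds (background 1.52%). By limma 5 of them had an adjusted p under 0.05 in sham wounds and 0 in CAP wounds. Of the slow fibre genes, 5 of 7 tested were past the threshold and lower at day 6 in sham wounds (median -1.38, background 1.61%). In CAP wounds 5 of 7 were (median -1.39, background 1.52%). A limma adjusted p under 0.05 was reached by 2 slow fibre genes in sham wounds and 0 in CAP wounds. Myog, the factor that starts fibre differentiation, had 34.5, 41.7 and 39.9 TPM in sham wounds at day 3, 36.4, 12.8 and 6.10 TPM in CAP wounds at day 3, 2.96, 5.79 and 5.46 TPM in sham wounds at day 6 and 0.78, 1.82 and 4.22 TPM in CAP wounds at day 6. In sham wounds its log2 difference between days was -3.06 ± 0.25 (limma adjusted p = 0.00985). The embryonic myosin gene Myh3 differed by -2.72 ± 0.73 between CAP and sham wounds at day 3 (limma adjusted p = 0.562) and by -2.61 ± 0.71 at day 6 (limma adjusted p = 0.209). Of 8 genes of the neuromuscular junction, led by Chrnb1, 0 were past the threshold between treatments. In sham wounds 4 were lower at day 6 (background 1.61%), among them Chrng, the fetal subunit of the acetylcholine receptor (-2.82 ± 0.42, limma adjusted p = 0.0258).

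Markers of other cells moved in the same comparisons. At day 3, 5 of 5 erythroid markers were higher in CAP wounds (background 0.426%), with sums of 2356 to 2803 TPM against 514 to 753 TPM. At day 6, 2 of 4 keratinocyte markers (sums of 42456 to 89818 TPM against 24553 to 27577 TPM) and 1 of 6 adipocyte markers were higher in CAP wounds (background 1.46%). Lower in CAP wounds (background 2.34%) were 2 of 6 smooth muscle and pericyte markers (137 to 336 TPM against 430 to 601 TPM) and 3 of 5 endothelial markers (66.3 to 183 TPM against 220 to 300.4 TPM). In sham wounds, day 6 exceeded day 3 for 5 of 6 smooth muscle and pericyte markers (251 to 285 TPM at day 3), 3 of 5 endothelial markers (81.9 to 114 TPM at day 3) and 5 of 5 erythroid markers (background 2.13%). In CAP wounds, 2 of 4 keratinocyte markers were higher (background 1.27%) and 2 of 5 neutrophil markers lower (background 1.52%) at day 6. In the comparison of effects, 5 of 5 erythroid markers were lower (background 2.73%) and 2 of 4 keratinocyte markers higher (background 2.18%). By limma, 3 erythroid markers had an adjusted p under 0.05 between treatments at day 3. No marker had one between treatments at day 6, between days in CAP wounds or in the comparison of effects. Between days in sham wounds, 3 smooth muscle and pericyte, 4 endothelial and 5 erythroid markers had one, as did Cidea. The brown fat marker Ucp1 did not exceed 0.149 TPM, while Cidea was lower at day 6 in both treatments. None of the 5 fibroblast markers was past the threshold in these 4 comparisons. TPM is relative to the whole library, and the part of these shifts in the values of the muscle genes was not tested. After rescaling each library to the sum of all genes other than muscle genes, the 43 members gave the same numbers past the threshold in each comparison. The muscle lists held only 0.389% to 1.18% of the TPM of a library, so this rescaling could hardly change a value. It does not address the shifts of the other cell types.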

How the data were processed

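The authors sequenced RNA of wounds as SureSelect XT HS2 mRNA libraries. Per the labels, reads were converted with bcl2fastq and trimmed with Trimmomatic 0.36 for the mm10 genome. Expression was estimated by the authors with StringTie, and TPM was deposited in 12 tables, 1 per library, with 0.0001 in place of 0. The members and gene lists were chosen with earlier results of these data known.

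Values were put on the log2(TPM + 0.1) scale and tested in 5 comparisons with the trended variance prior of limma 3.58.1 (R 4.3.3). Genes needed a mean of 0.3 TPM in both groups, or in at least 1 of 4 groups in the comparison of effects. Benjamini-Hochberg adjustment covered every gene tested in a comparison. The fit was tested on simulated data. Exact permutation tests were 2-sided over 20 divisions. Python 3.11.15 with pandas 2.3.3, scipy 1.17.1 and matplotlib 3.10.9 was used for the rest. Named with their tests were the members past the threshold (at most 12 per comparison), 10 fixed members in each comparison, and the members farthest from the median of the members. Of the other muscle lists, genes past the threshold (at most 5 a list) and the most abundant gene were named. Alternatives were another pseudocount, other filters, a joint fit, other scalings, the replicate block and each library left out. RefSeq (GRCm38.p6) gave the promoters and GENCODE M21 the transcripts.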

Additional observations from a re-analysis of the deposited data

Results flagged for a closer look

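Trim63, the ubiquitin ligase MuRF1, was flagged as the only member past the unadjusted threshold in the comparison of effects. Over all genes tested, 2.73% were past it and lower, a share no smaller than that of the members. Being past it therefore does not set Trim63 apart from the background. The log2 difference of the effects was -1.20 ± 0.36 (SE), past the unadjusted threshold but not the adjustment over all genes (limma adjusted p = 0.428), and it was -0.93 without CAP day 3 replicate 1.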

How the results depend on the processing

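TPM hides depth, groups of 3 limit each test, few members passed an adjusted test, and CAP day 3 replicates 1 and 3 set the size of each comparison that uses them. With each library left out in turn, the members past the threshold and lower numbered 0 to 9 between treatments at day 3, 0 to 2 at day 6, 3 to 11 between days in sham wounds, 2 to 15 in CAP wounds, and 0 to 1 in the comparison of effects, where 0 to 1 were higher. In the same order, the shares lower over all genes were 0.813% to 1.97%, 0.931% to 5.65%, 1.63% to 1.88%, 0.818% to 2.96% and 1.42% to 5.48%. In the comparison of effects, 1.71% to 3.25% of all genes were higher. Members with a difference below 0 went from 40 to 35 at day 3 (without CAP day 3 replicate 3), from 43 to 38 at day 6 (without sham day 6 replicate 1) and from 42 to 34 in CAP wounds (without CAP day 3 replicate 1). Among the members named in each comparison, log2 differences that changed sign ran from -0.77 to 0.069 (Myh1) and from -0.76 to 0.024 (Myh2) at day 3, from -0.44 to 0.14 (Myh2) and from -0.58 to 0.0053 (Sln) at day 6, and from -0.84 to 0.0016 (Myh1) and from -0.54 to 0.20 (Pvalb) between days in CAP wounds. In the comparison of effects they ran from -0.76 to 0.21 (Myh4), -0.22 to 0.62 (Myh1), -0.24 to 0.62 (Myh2), -0.18 to 0.58 (Acta1), -0.040 to 0.53 (Ckm), -0.39 to 0.36 (Ttn) and -0.19 to 0.55 (Pvalb). Ttn was also 0.026 after median-ratio scaling and 0.055 after quantile normalization there.

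An alternative chosen after seeing the data scales each library to the median of the members, so it measures each gene against the others by construction. Members past the threshold were then 1 higher at day 3, 0 lower at day 6, 1 higher and 1 lower between days in sham wounds, and 2 lower in CAP wounds. Of the named genes, these changed sign: at day 3 Myh1 (0.18), Myh2 (0.063), Acta1 (0.049) and Ttn (0.14), at day 6 Myh1 (0.23), Myh2 (0.16), Acta1 (0.081), Sln (0.047) and Fbxo32 (0.22), between days in sham wounds Myh1 (0.070), Ckm (0.095), Pvalb (0.34), Sln (0.037) and Trim63 (0.18), in CAP wounds Myh1 (0.12), Ckm (0.093), Pvalb (0.40), Sln (0.17) and Fbxo32 (0.21), and in the comparison of effects Ckm (-0.0020). On this scale, single libraries left out moved Fbxo32 at day 3 from 0.66 to 1.48, and its call was lost without sham day 3 replicate 1 or 2 or CAP day 3 replicate 3. Myh2 between days ran from -1.37 to -0.98 in sham wounds, short of the threshold without sham day 6 replicate 2, and from -1.19 to -0.80 in CAP wounds, lost in 4 of 6. Trim63 in CAP wounds ran from -1.41 to -1.01 and was lost in 3 of 6, while Fbxo32 between days in sham wounds and Trim63 in the comparison of effects kept their calls.

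Without Acta1 the members' share was 0.625% in sham wounds at day 3, 0.385% at day 6 and 0.298% in CAP wounds at day 6. The deviations of libraries with the same number were weakly correlated (from -0.107 to 0.2003). What the number stands for is not given, and with 3 libraries per group this check cannot settle it. The replicate block left the members past the threshold at 0, 1, 5, 4 and 1 and lowered those with an adjusted p under 0.05 in sham wounds from 7 to 4. On the scale of the members' median, the block ended the call of Myh2 in CAP wounds (-1.04). Over all genes, those higher and lower at day 6 were 268 and 429, against 384 and 310 after median-ratio scaling and 406 and 244 after quantile normalization, and at day 3 they were 78 and 212 against 87 and 180, and 101 and 160. With a pseudocount of 1 they were 43 and 111 at day 3, 157 and 228 at day 6, 234 and 171 in sham wounds, and 144 and 155 in CAP wounds. With no filter they were 210 and 358, 419 higher at day 6, 653 and 503, and 399 and 443. The comparison of effects had 441 and 553, 246 and 334 with that pseudocount, and 286 and 360 with 0.3 TPM in every library.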
